A study of Homo sapiens with 4 samples.

Results

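The nuclear genes of oxidative phosphorylation were followed through an ATAC-seq comparison of a human breast cancer cell line, by the peaks of open chromatin at the ends of these genes. Members were taken by symbol: every protein-coding gene of the RefSeq GRCh38.p14 gene table starting with NDUFA, NDUFB, NDUFC, NDUFS, NDUFV, UQCR, COX4, COX5, COX6, COX7, COX8, ATP5F, ATP5M or ATP5P, together with SDHA, SDHB, SDHC, SDHD and CYC1. This gave 96 genes of 20037. A gene-end peak was a peak within 1 kb of either end of a gene, and 84 of the 96 genes had at least 1. Together they held 153 gene-end peaks, of 24122 gene-end peaks and 190348 peaks in all, and all 153 had enough counts to be tested.

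The cells were LM2, a derivative of the triple-negative line MDA-MB-231 with a raised potential to metastasise to the lung. The sg1 group (2 libraries) carried a CECR2 deletion, named deletion 1 and made with guide sg1, and the control group (2 libraries) a non-targeting control. CECR2 is a bromodomain protein of ISWI chromatin remodelling complexes. All cells grew in medium with puromycin, and each library was made from 50000 cells. Whether the deletion line was 1 clone or a pool, and whether the replicates were separate cultures, was not given, so p-values speak only to how far these libraries differ, which can be technical variation alone.

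In oxidative phosphorylation, complex I (NADH dehydrogenase) and complex II (succinate dehydrogenase) pass electrons to ubiquinone, complex III passes them on to cytochrome c, and complex IV reduces oxygen. Complexes I, III and IV pump protons across the inner mitochondrial membrane, and complex V, the ATP synthase, lets them back to make ATP. Most subunits are encoded in the nucleus, while a few of complexes I, III, IV and V come from mitochondrial DNA, so that nuclear and mitochondrial products must be matched. The transcription factors NRF1, GABP (an ETS factor) and YY1 are known for binding promoters of nuclear respiratory genes.

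The promoters of 7 members are printed because the results turn on them: NDUFB11 held the largest called fall at a gene start, NDUFA12, SDHB, UQCRH, ATP5ME and COX6A1 were among the genes whose start peaks were higher in sg1, and COX6A2, the muscle isoform gene paired with COX6A1, had no peak. Each runs from 250 bases before to 50 after the RefSeq start (GRCh38.p14), 5′ to 3′ on the gene's strand. Capitals mark matches, on either strand, to the searched cores: GCGC, any base and TGCGC for NRF1, CCGGAAG for GABP/ETS, AAGATGG for YY1, GGGCGG for the GC box of SP1 and KLF factors, and TATAAA for the TATA box.
NDUFB11 (chrX:47144653-47144952, minus strand): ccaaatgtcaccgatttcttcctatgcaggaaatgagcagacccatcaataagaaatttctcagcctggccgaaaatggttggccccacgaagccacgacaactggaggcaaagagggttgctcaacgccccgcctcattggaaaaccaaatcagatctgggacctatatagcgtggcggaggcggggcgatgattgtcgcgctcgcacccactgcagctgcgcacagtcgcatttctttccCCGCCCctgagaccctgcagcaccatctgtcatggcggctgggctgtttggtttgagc
NDUFA12 (chr12:95003648-95003947, minus strand): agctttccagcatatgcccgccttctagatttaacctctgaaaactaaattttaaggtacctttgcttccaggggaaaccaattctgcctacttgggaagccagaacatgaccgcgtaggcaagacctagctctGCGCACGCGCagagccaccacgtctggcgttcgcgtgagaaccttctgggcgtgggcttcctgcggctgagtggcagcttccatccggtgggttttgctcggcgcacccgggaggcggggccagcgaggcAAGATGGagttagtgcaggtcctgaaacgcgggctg
SDHB (chr1:17053983-17054282, minus strand): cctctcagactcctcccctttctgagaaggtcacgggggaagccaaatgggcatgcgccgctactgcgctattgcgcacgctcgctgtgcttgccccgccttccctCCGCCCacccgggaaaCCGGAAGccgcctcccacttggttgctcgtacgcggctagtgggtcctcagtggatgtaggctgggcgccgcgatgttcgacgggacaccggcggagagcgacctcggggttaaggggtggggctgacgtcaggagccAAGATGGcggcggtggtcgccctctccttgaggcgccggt
UQCRH (chr1:46303448-46303747, plus strand): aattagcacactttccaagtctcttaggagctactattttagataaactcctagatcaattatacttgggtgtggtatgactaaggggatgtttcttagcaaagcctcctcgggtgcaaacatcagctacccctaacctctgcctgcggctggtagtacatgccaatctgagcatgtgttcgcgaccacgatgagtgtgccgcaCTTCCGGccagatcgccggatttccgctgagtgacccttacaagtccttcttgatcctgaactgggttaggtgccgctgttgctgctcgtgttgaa
ATP5ME (chr4:674227-674526, minus strand): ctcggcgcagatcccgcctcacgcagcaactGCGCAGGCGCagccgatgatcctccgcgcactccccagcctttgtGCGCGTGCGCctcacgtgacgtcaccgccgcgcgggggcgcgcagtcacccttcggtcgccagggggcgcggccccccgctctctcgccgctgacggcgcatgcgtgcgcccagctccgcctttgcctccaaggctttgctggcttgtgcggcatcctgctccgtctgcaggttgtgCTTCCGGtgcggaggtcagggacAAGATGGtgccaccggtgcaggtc
COX6A1 (chr12:120437863-120438162, plus strand): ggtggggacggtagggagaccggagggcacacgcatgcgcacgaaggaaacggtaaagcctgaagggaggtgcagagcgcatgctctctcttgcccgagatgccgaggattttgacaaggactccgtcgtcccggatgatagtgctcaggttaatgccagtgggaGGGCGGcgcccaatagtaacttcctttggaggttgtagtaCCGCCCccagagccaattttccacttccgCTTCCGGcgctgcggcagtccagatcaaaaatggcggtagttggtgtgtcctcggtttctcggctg
COX6A2 (chr16:31428311-31428610, minus strand): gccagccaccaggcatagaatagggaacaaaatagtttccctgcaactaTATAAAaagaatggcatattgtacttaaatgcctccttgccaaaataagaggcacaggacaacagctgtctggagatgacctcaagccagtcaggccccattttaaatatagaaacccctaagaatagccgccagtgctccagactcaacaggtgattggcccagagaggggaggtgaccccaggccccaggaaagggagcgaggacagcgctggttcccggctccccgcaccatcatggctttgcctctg

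The ATP5ME window held 2 matches to the NRF1 core, 1 to the GABP/ETS core and 1 to the YY1 core, the last just before its end. The SDHB window held the GABP/ETS core, the YY1 core and a GC box, and the NDUFA12 window the NRF1 and YY1 cores. The NDUFB11 window had a GC box as its only match. The COX6A2 window had a TATA box as its only match and 5 CpG dinucleotides, against 22 in the window of COX6A1. Among the 77 members with a RefSeq promoter, the NRF1 core was matched in 18 (23.4%), against 8.58% of 15843 protein-coding promoters. The GABP/ETS core was matched in 21 members (27.3%), against 14.2% of all, and the YY1 core in 16 (20.8%), against 6.40% of all. GC boxes were as frequent in members as in all promoters (57.1% against 58.5%), as were TATA boxes (9.09% against 9.63%). GC content was also close, with medians of 61% in member promoters and 62.7% in all. A match is a description of letters and does not show binding.

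**Figure D1:**
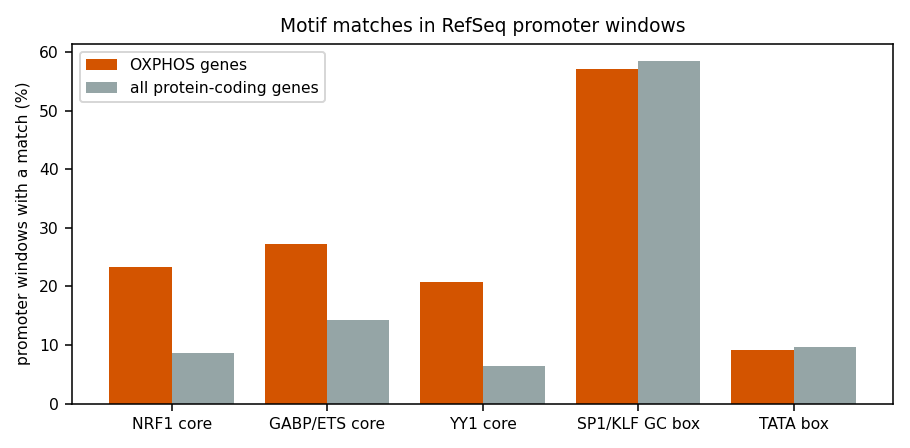
Share of RefSeq promoter windows (y axis, percent) with at least 1 match to each core (x axis), for OXPHOS genes (77 windows) and all protein-coding genes (15843 windows). The NRF1, GABP/ETS and YY1 cores were matched more often in OXPHOS promoters, at 23.4%, 27.3% and 20.8%, while GC boxes and TATA boxes were matched about as often in both.

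The sg1 libraries held 58341297 and 52150389 counts and the control libraries 25610655 and 18950793. The 109 peaks in the first 250 kb of chromosome 1, which took 17.9% to 25.4% of a library, were left out, and the counts used were 43519018 and 38924086 in sg1 and 21002477 and 15561701 in control. Levels are depth-scaled counts (CPM) after TMM scaling, the adjusted p-values are from edgeR's quasi-likelihood test with Benjamini-Hochberg adjustment over all 184717 tested peaks, and a peak was called at an FDR of 0.05. Over all tested peaks 11.5% were called higher and 16.8% lower in sg1. Markers of the MDA-MB-231 lineage had open gene ends (VIM 82.5 CPM, CAV1 48.7, CD44 30.8, means of the 4 libraries), ESR1, ALB and PECAM1 had no gene-end peak, and PGR (2.47) and PTPRC (0.665) were low. CD3E, a T cell gene, went against its place among genes that should be low, at 29.4 CPM. At CECR2 itself the tallest gene-end peak held 148 and 165 counts in sg1 and 74 and 52 in control (log2 fold change 0.10, SE 0.21, adjusted p = 0.770), which checks nothing about a deletion elsewhere in the gene.

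Most OXPHOS genes had an open start in both groups. Of the 70 members with both a RefSeq start and a gene-end peak, 69 had their tallest gene-end peak within 1 kb of that start and 63 had it over the start. Each gene is represented below by this tallest peak, the one with the highest mean CPM. The 84 genes had 82 distinct tallest peaks. NDUFC2 and NDUFC2-KCTD14 have the same tallest peak, as do ATP5MF and ATP5MF-PTCD1, and each symbol is counted as a gene. Neither of these peaks was called. Levels per kb of peak had a median of 18.8 CPM per kb. They were highest at NDUFA11 (58.5), a membrane-arm subunit of complex I, and at ATP5F1B (49.3), the catalytic beta subunit of ATP synthase. The lowest were at COX6B2 (5.48) and COX6C (6.23), both complex IV subunits. In bulk ATAC-seq, more cells with an open site and a more open site per cell cannot be told apart.

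Compared with control, 21 of the 84 genes were higher in sg1 and 5 were lower, while 58 did not pass the test. The 21 higher genes were 25% of the members, against 30.6% of the tallest gene-end peaks of all 14632 tested protein-coding genes, and the 5 lower genes 5.95%, against 8.94% of all. The median log2 fold change was 0.16 over members and 0.15 over all genes. Called changes were small, from 1.20-fold to 1.56-fold among the higher genes and from 0.664-fold to 0.860-fold among the lower ones. Both sg1 libraries lay above both control libraries at 53 of the 84 genes (63.1%, against 53.7% of all genes) and below both at 8 (9.52%, against 18.1%). Over all 153 gene-end peaks 29 (19.0%) were higher and 7 (4.58%) lower, against 21.2% and 7.28% of all gene-end peaks. The shares of members called by the test were thus near the background, and slightly under it, in both directions.

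Counts of calls fell, over members and over all genes, when an sg1 library was left out. Without sg1 replicate 1, 8 genes were higher and 2 lower, against 20.0% and 4.76% of all genes in that fit, and without sg1 replicate 2, 12 were higher and 1 lower, against 17.6% and 4.90% of all genes. DESeq2 called 12 higher and 2 lower, against 17.4% and 5.38% of all genes. It did not call SDHA, CYC1, NDUFA1, NDUFA9, NDUFS3, NDUFS7, NDUFAF5, NDUFAF8, COX6B2, ATP5F1D, ATP5PB or ATP5PO. With scaling by library size alone, NDUFA1, NDUFAF8 and ATP5PO were no longer called (adjusted p = 0.0737, 0.0763 and 0.0699). NDUFB11, NDUFA12, SDHB, UQCRH, COX6C and ATP5F1E were the 6 of 26 called genes that kept their call under all 10 alternative fits.

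**Figure D2:**
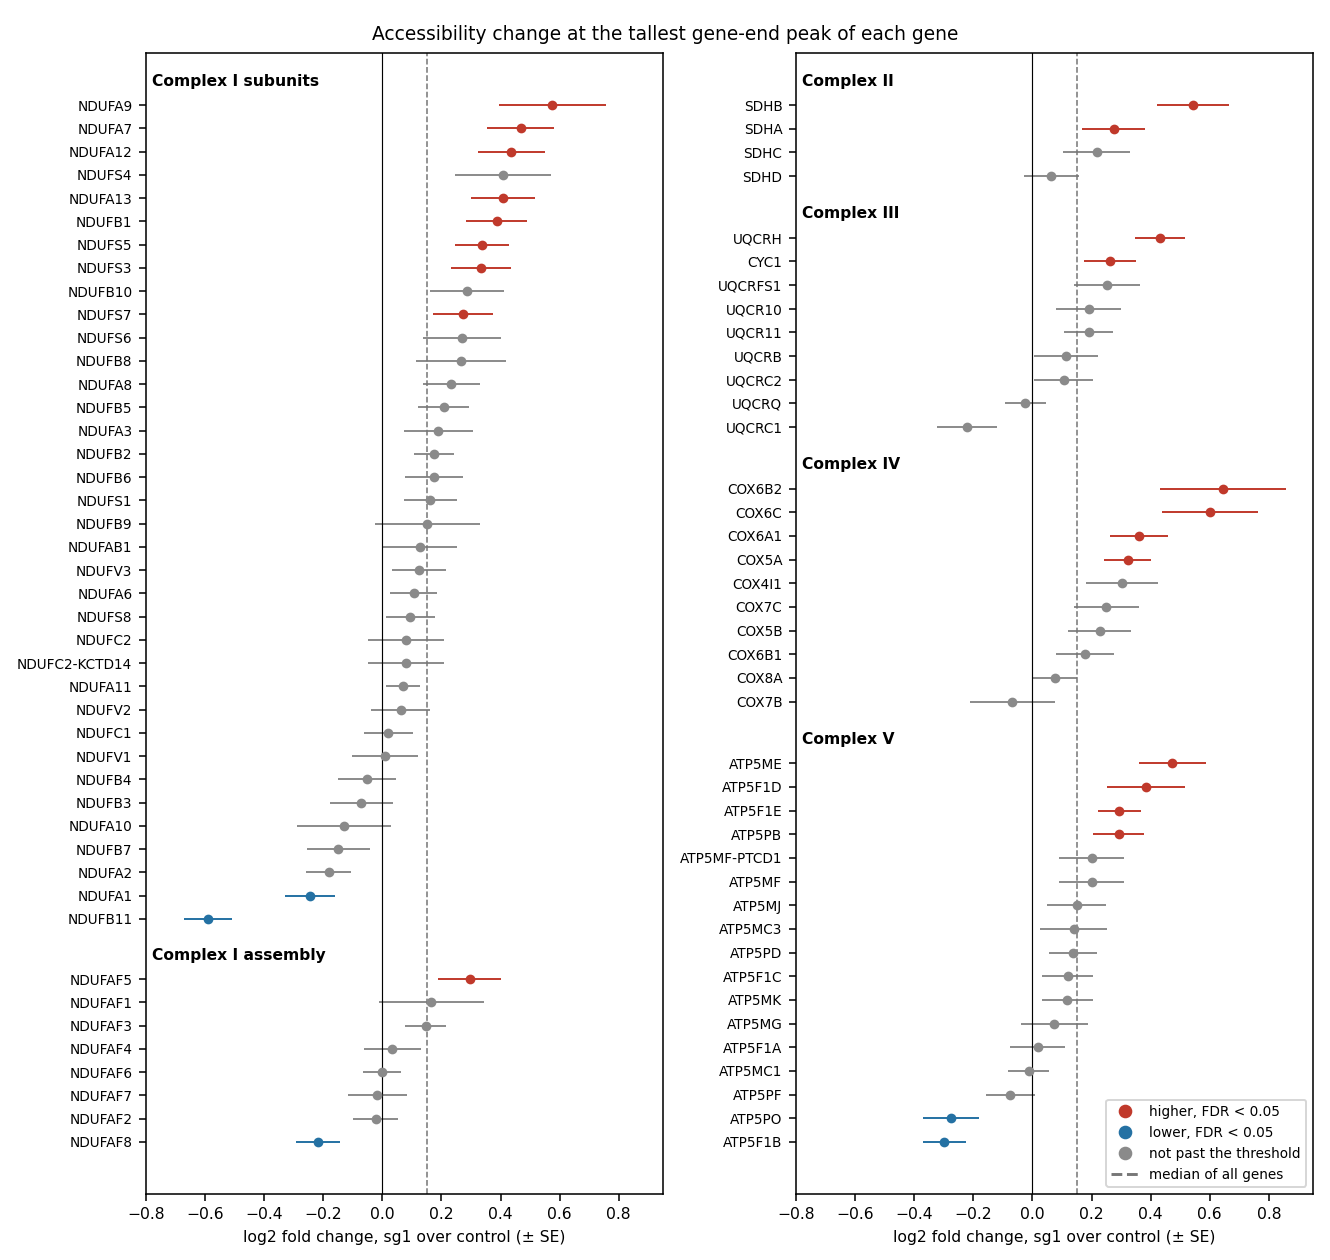
Log2 fold change of sg1 over control (x axis, with its SE as bars) at the tallest peak of the 84 OXPHOS genes (rows), grouped by complex and coloured by call; the dashed line is the median of all genes. Most genes lay between 0 and 0.5, NDUFB11 was the lowest at -0.59 and COX6B2 the highest at 0.64.

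Among the 38 complex I subunit genes, 36 had a gene-end peak, and 8 were higher and 2 lower in sg1 (median log2 fold change 0.16). NDUFB11, a membrane-arm subunit encoded on the X chromosome, had 20.4 and 21.9 CPM in sg1 and 31.8 and 31.8 CPM in control. The groups did not overlap, and the fall was the largest at any member's tallest peak (chrX:47144586-47145593, log2 fold change -0.59, SE 0.08, adjusted p = 1.04e-06). The peak also lay at an end of RBM10, so it belongs to both genes. NDUFA1, the other lower subunit gene and also on X, shares its peak with RNF113A. This peak had 22.6 and 22.1 CPM in sg1 and 25.9 and 27.1 CPM in control. Its groups did not overlap either, but the fall was smaller (-0.25, SE 0.08, adjusted p = 0.0263) and was called without control replicate 1 alone among the 4 fits that leave out a library, whose adjusted p ran from 0.025 to 0.237.

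NDUFA12, an accessory subunit of the matrix arm, had 14.8 and 15.1 CPM in sg1 and 11.8 and 10.2 CPM in control (log2 fold change 0.44, SE 0.11, adjusted p = 0.00391). Both sg1 libraries were above both controls, and the call held in each of the 4 fits that leave out a library. NDUFA13, also known as GRIM19 for its part in cell death, shares its peak with TSSK6. This peak had 17.1 and 16.5 CPM in sg1 and 13.7 and 11.4 CPM in control (0.41, SE 0.11, adjusted p = 0.00473). Its adjusted p was 0.0578 without control replicate 2 and 0.0528 without sg1 replicate 1. NDUFA7 had 19.0 and 19.8 CPM in sg1 and 11.8 and 16.6 CPM in control (0.47, SE 0.11, adjusted p = 0.00181). This peak lies at the far end of the gene, within 1 kb of the start of CD320. That call was lost without control replicate 1 (adjusted p = 0.164). The NDUFA7 start has a peak of its own, shared with RPS28, which was higher too, at 14.9 and 15.2 CPM in sg1 and 11.3 and 11.3 CPM in control (0.41, SE 0.11, adjusted p = 0.00506). Without sg1 replicate 2 its adjusted p was 0.0559.

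The other higher subunit genes of complex I were NDUFA9, NDUFB1, NDUFS3, NDUFS5 and NDUFS7, with log2 fold changes of 0.27 to 0.58. The peaks of NDUFA9, NDUFB1 and NDUFS3 also lay at an end of AKAP3, CPSF2 and KBTBD4, in that order. NDUFB1, NDUFS3, NDUFS5 and NDUFS7 lost their calls without control replicate 1 (adjusted p from 0.0546 to 0.267) and without sg1 replicate 1 (from 0.0634 to 0.356), and NDUFS7 also without sg1 replicate 2 (0.0624). NDUFA9 lost its call without control replicate 2 (0.386) and without sg1 replicate 1 (0.127). The replicates differed most at NDUFA9, with 11.1 and 9.09 CPM in sg1 and 8.83 and 4.30 CPM in control, where the groups were only just apart. Among core subunit genes, NDUFS3 and NDUFS7 were thus higher, while NDUFS1, NDUFS8, NDUFV1 and NDUFV2, whose products hold iron-sulphur clusters or the flavin, did not pass the test at their tallest peaks. NDUFV1 was the flattest of these, with a log2 fold change of 0.01 (adjusted p = 0.958).

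All 8 NDUFAF genes, which encode assembly factors of complex I and are not subunits of the finished enzyme, had a gene-end peak. NDUFAF5, which modifies NDUFS7 during assembly, was higher, with 15.7 and 16.6 CPM in sg1 and 12.8 and 13.5 CPM in control (log2 fold change 0.30, SE 0.11, adjusted p = 0.0343). NDUFAF8, which works with NDUFAF5, was lower, with 34.0 and 32.8 CPM in sg1 and 40.2 and 37.4 CPM in control (-0.22, SE 0.07, adjusted p = 0.0235). These partners thus moved in opposite directions, each without overlap between groups. The NDUFAF5 peak is shared with ESF1 and the NDUFAF8 peak with TEPSIN. Each call held in 1 of the 4 fits that leave out a library, without control replicate 2, with adjusted p of up to 0.229 for NDUFAF5 and 0.268 for NDUFAF8 in the others, and DESeq2 called neither.

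Complex II is encoded wholly in the nucleus, and all 4 of its subunit genes had a gene-end peak. SDHB, the iron-sulphur subunit, had 12.9 and 14.0 CPM in sg1 and 9.37 and 9.05 CPM in control. The groups were well apart (chr1:17053720-17054600, log2 fold change 0.54, SE 0.12, adjusted p = 0.000866), and the call held in all 4 fits that leave out a library. SDHA, the flavoprotein, had 15.5 and 17.1 CPM in sg1 and 13.3 and 13.7 CPM in control (0.28, SE 0.11, adjusted p = 0.0494), a call lost in each of those 4 fits (adjusted p from 0.0598 to 0.350) and with the replicate block (0.0559). The SDHA peak also lay at an end of CCDC127. The membrane anchor genes SDHC and SDHD had log2 fold changes of 0.22 and 0.06 and did not pass. None of the 4 was lower by edgeR, by DESeq2 or at an unadjusted p under 0.05 (0 genes).

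In complex III, 9 of 10 genes had a gene-end peak and 2 were higher. UQCRH, the hinge protein between the cytochrome c1 subunit and cytochrome c, had 28.6 and 30.1 CPM in sg1 and 22.7 and 20.7 CPM in control (chr1:46301663-46303433, log2 fold change 0.43, SE 0.08, adjusted p = 0.000196), at a peak shared with LRRC41. A second peak, over the UQCRH start printed above, was higher as well, at 12.6 and 12.4 CPM in sg1 and 9.47 and 8.60 CPM in control (0.46, SE 0.12, adjusted p = 0.00519; 0.0548 without sg1 replicate 1). CYC1, which encodes cytochrome c1, had 25.3 and 24.1 CPM in sg1 and 19.6 and 21.7 CPM in control (0.26, SE 0.09, adjusted p = 0.0242). Its call held without control replicate 2 and was lost in the other 3 such fits (adjusted p from 0.0654 to 0.196). No tallest peak of complex III was called lower by edgeR or DESeq2, and 1, UQCRC1, was lower at an unadjusted p under 0.05.

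**Figure D3:**
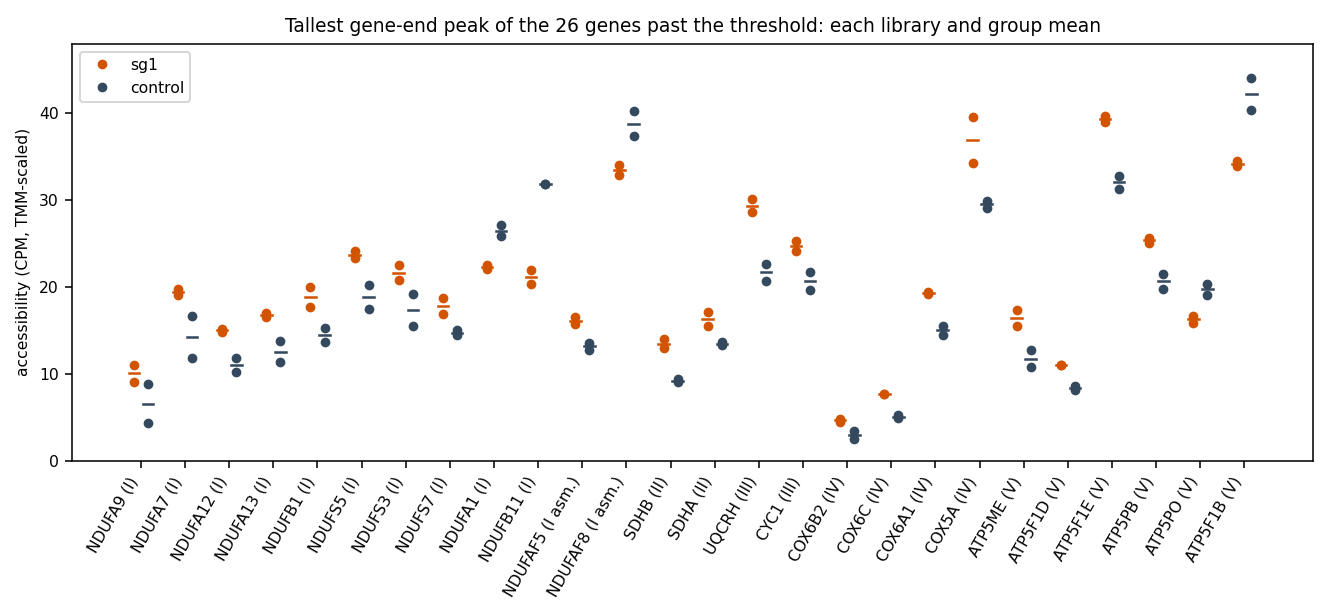
CPM after TMM scaling (y axis) in each sg1 and control library (points, with group means as short lines) at the tallest gene-end peak of the 26 called OXPHOS genes (x axis). The sg1 points lie above the control points at 21 genes and below them at 5, and the gaps are small beside the range of levels between genes.

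Complex IV showed the highest median, with a log2 fold change of 0.28, but on 10 genes only. COX6C had 7.69 and 7.72 CPM in sg1 and 5.24 and 4.88 CPM in control (log2 fold change 0.60, SE 0.16, adjusted p = 0.00518). COX5A, a subunit on the matrix side of complex IV, had 34.3 and 39.6 CPM in sg1 and 30.0 and 29.1 CPM in control (0.32, SE 0.08, adjusted p = 0.00234), a call lost without sg1 replicate 2 (0.133). COX6A1, the isoform of most tissues, had 19.4 and 19.2 CPM in sg1 and 15.5 and 14.5 CPM in control (0.36, SE 0.10, adjusted p = 0.00540), lost without sg1 replicate 1 (0.0559). All 3 were without overlap between groups. COX6B2, the testis isoform, was low throughout, with 4.49 and 4.84 CPM in sg1 and 3.40 and 2.47 CPM in control (0.64, SE 0.21, adjusted p = 0.0216). Its peak lies at an end of GARIN5B too, and the call held without control replicate 1 and was lost without each of the other 3 libraries (adjusted p up to 0.152).

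The other isoform genes of most tissues with a gene-end peak did not pass; COX7A2, which had none, is described further on. COX4I1 had a log2 fold change of 0.30 (adjusted p = 0.0607), COX6B1 of 0.18, COX8A of 0.08 and COX7B of -0.07. None of these 10 tallest gene-end peaks was lower by edgeR, by DESeq2 or at an unadjusted p under 0.05 (0 genes).

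Complex V had 17 of 19 genes with a gene-end peak, 4 of them higher and 2 lower (median log2 fold change 0.14). ATP5F1B, the beta subunit gene, had 34.5 and 33.9 CPM in sg1 and 40.3 and 44.0 CPM in control (chr12:56645687-56646461, -0.30, SE 0.07, adjusted p = 0.00189). ATP5PO, the stalk subunit that confers oligomycin sensitivity, had 15.9 and 16.6 CPM in sg1 and 19.1 and 20.3 CPM in control (-0.28, SE 0.10, adjusted p = 0.0285). Both were lower without overlap. The ATP5F1B call missed the threshold without sg1 replicate 2 (adjusted p = 0.0510), and the ATP5PO call held only without control replicate 1 among the fits that leave out a library (up to 0.269).

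ATP5ME, a small membrane subunit, had 15.5 and 17.3 CPM in sg1 and 12.7 and 10.7 CPM in control (chr4:674102-675213, log2 fold change 0.47, SE 0.11, adjusted p = 0.00165). Its peak covers the printed promoter and also an end of MYL5, and the adjusted p was 0.0518 without sg1 replicate 2. ATP5F1E, the epsilon subunit of the rotor, had 39.7 and 39.0 CPM in sg1 and 32.8 and 31.3 CPM in control (0.29, SE 0.07, adjusted p = 0.00250). That call held in all 4 fits that leave out a library, at a peak shared with PRELID3B. ATP5PB, at a peak shared with WDR77, and ATP5F1D were higher by 0.29 and 0.38 on the log2 scale. Each was called only without control replicate 1 among those 4 fits.

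The same mature subunit c of the rotor ring is made from 3 genes. ATP5MC1 had 39.6 and 41.2 CPM in sg1 and 40.2 and 41.4 CPM in control, with overlap between groups (log2 fold change -0.01, SE 0.07). ATP5MC3 had 13.6 and 13.1 CPM in sg1 and 12.4 and 11.8 CPM in control (0.14, SE 0.11, adjusted p = 0.380). ATP5MC2 had no gene-end peak, but a peak inside the gene lay within 1 kb of its RefSeq start. It had 23.5 and 20.7 CPM in sg1 and 17.7 and 15.6 CPM in control (0.41, SE 0.10, adjusted p = 0.00188). The call was lost without sg1 replicate 1. That peak was looked for after the missing gene-end peak was seen.

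**Figure D4:**
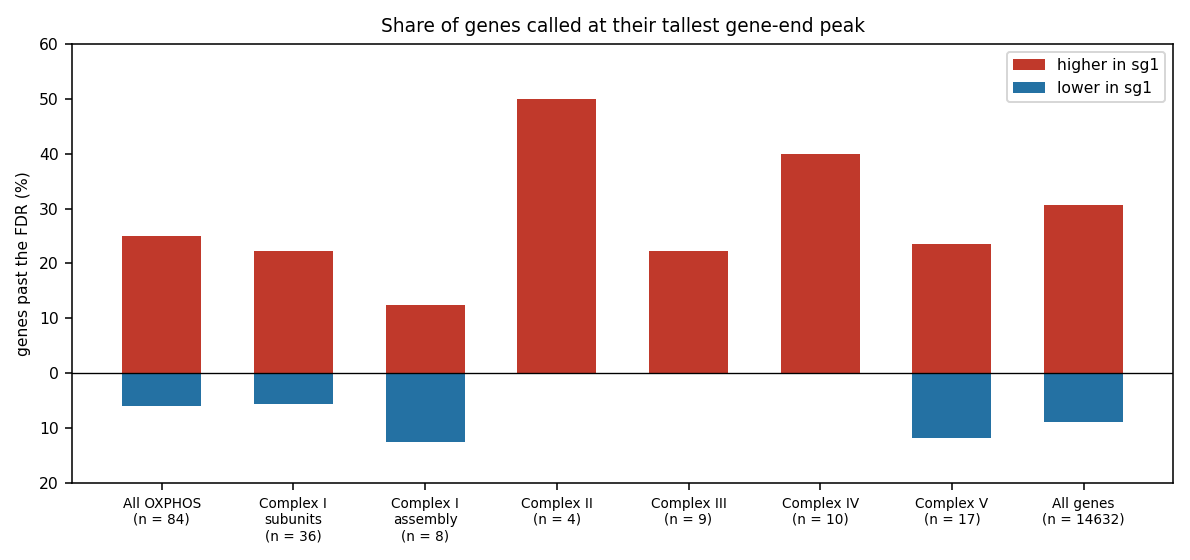
Share of genes called at their tallest gene-end peak (y axis, percent; higher in sg1 above 0, lower below 0) for all OXPHOS genes, each complex and all tested protein-coding genes (x axis, with the number of genes). The OXPHOS shares were 25% higher and 5.95% lower, against 30.6% and 8.94% of all genes, and the complexes with the largest shares rest on 4 and 10 genes.

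Among the 71 gene-end peaks other than the tallest, 8 (11.3%) were higher and 2 (2.82%) lower in sg1. Of all gene-end peaks 21.2% were higher and 7.28% lower, but these include the tallest peaks, called more often (30.6% and 8.94%). The share over the other gene-end peaks of all genes was not computed, so the 71 have no like background here. Some of the 71 changed more than the tallest peaks did. At the far end of UQCRC1, a core subunit gene of complex III, a peak 61 bp outside the gene had 4.92 and 4.18 CPM in sg1 and 11.5 and 11.7 CPM in control. This was the largest called fall among the 153 peaks (chr3:48598423-48598941, log2 fold change -1.34, SE 0.15, adjusted p = 1.60e-08), and it held in all 10 alternative fits. The UQCRC1 start itself had 17.6 and 19.4 CPM in sg1 and 23.9 and 18.8 CPM in control, with overlap between groups (-0.22, adjusted p = 0.0974). NDUFS8, an iron-sulphur subunit gene of complex I, showed a like arrangement. Its far-end peak, 44 bp outside the gene, had 22.9 and 19.1 CPM in sg1 and 30.3 and 32.4 CPM in control (chr11:68036688-68037293, -0.57, SE 0.09, adjusted p = 6.60e-06), while its start peak had a log2 fold change of 0.09. Neither far-end peak lay at the start of another gene in the promoter table: the nearest was COL7A1, 3094 bp away, for UQCRC1 and TCIRG1, 1732 bp away, for NDUFS8.

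The largest called rises were at small peaks. A peak inside CYC1, near an end of the gene, had 1.35 and 1.39 CPM in sg1 and 0.485 and 0.847 CPM in control (log2 fold change 1.08, SE 0.39, adjusted p = 0.0336). COX5A held a peak near its far end with 2.10 and 2.38 CPM in sg1 and 1.21 and 1.11 CPM in control (0.94, SE 0.30, adjusted p = 0.0177). Both calls were lost without sg1 replicate 1 and without sg1 replicate 2, the CYC1 call also without control replicate 1 (adjusted p up to 0.286 for CYC1 and 0.135 for COX5A), and DESeq2 called neither. A second UQCRB peak, at the other end of this ubiquinone-binding subunit's gene, was higher in every such fit, at 8.12 and 8.41 CPM in sg1 and 5.00 and 5.34 CPM in control (0.68, SE 0.16, adjusted p = 0.00139). Those left were a peak over the NDUFC1 start, close to that of NAA15 (0.43), and a far-end peak of NDUFB6 that lies over the start of TOPORS (0.41); the NDUFB6 call was lost without sg1 replicate 2 (adjusted p = 0.0639), and the NDUFC1 call without control replicate 2 (0.180) and without sg1 replicate 1 (0.0707).

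ATP5F1B was the 1 member with calls in both directions. Its tallest peak was lower in sg1, as given above. The peak at its other end, 869 bp outside the gene and 220 bp from the start of BAZ2A, was higher, with 33.8 and 32.3 CPM in sg1 and 27.0 and 24.8 CPM in control (chr12:56636579-56637306, log2 fold change 0.35, SE 0.08, adjusted p = 0.00108). The groups overlapped at neither end.

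**Figure D5:**
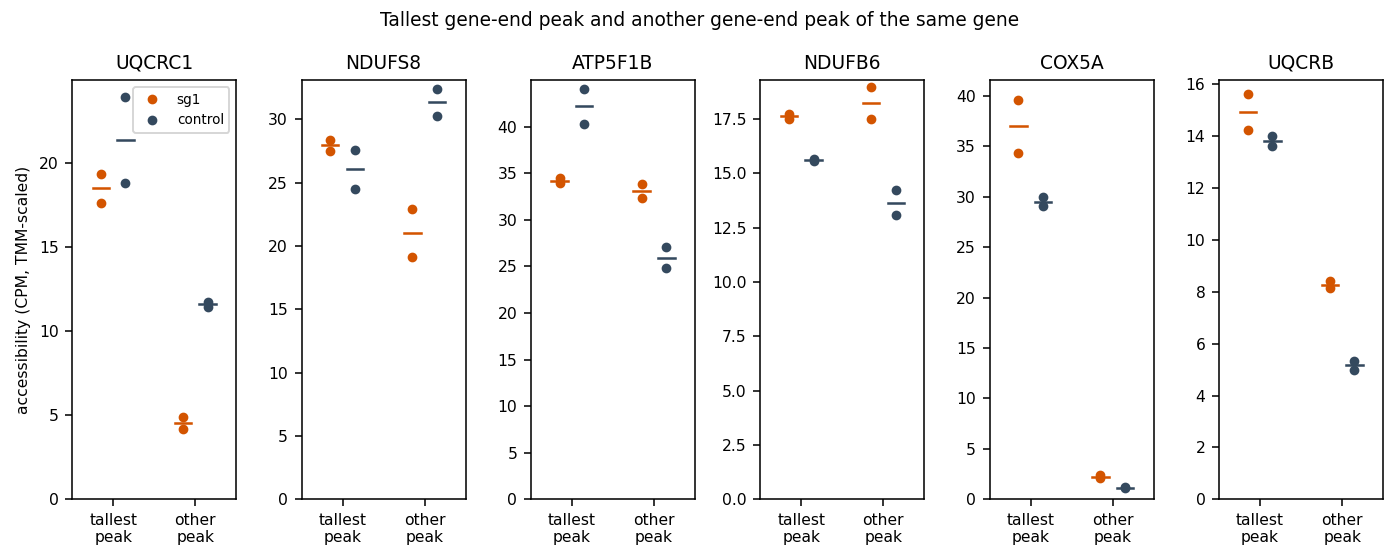
CPM after TMM scaling (y axis) in the sg1 and control libraries (points, with group means as short lines) at the tallest and another gene-end peak of 6 OXPHOS genes, each panel with its own scale from 0. The second peaks of UQCRC1 and NDUFS8 were lower in sg1 while their start peaks were not called, and the ends of ATP5F1B differed in opposite directions.

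Of the 153 member peaks, 79 also lay at an end of another protein-coding gene, and 16 of these were higher and 3 lower. The 74 at no other gene's end held 13 higher and 4 lower peaks. Of those shared with another gene 20.3% were higher and 3.80% lower, and of the others 17.6% and 5.41%, against 21.2% and 7.28% of all gene-end peaks. Farther out, of 177 peaks from 1 to 10 kb of a member's end, 19 (10.7%) were higher and 24 (13.6%) lower, against 10.1% and 15.7% of all such peaks. Just inside the limit of 1 kb, a peak at 980 bp from NDUFAF6 had 5.03 and 4.76 CPM in sg1 and 5.29 and 4.23 CPM in control, and a peak at 961 bp from ATP5MG had 0.496 and 0.506 CPM in sg1 and 0.825 and 1.11 CPM in control. Just outside, a peak at 1063 bp from UQCR11 had 2.78 and 3.62 CPM in sg1 and 2.96 and 2.15 CPM in control.

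Of the 12 members without a gene-end peak, 6 had no peak in the gene either: COX4I2, COX6A2, COX7A1, COX8C, ATP5MGL and UQCRHL. COX4I2 is known from lung, COX6A2 and COX7A1 from heart and skeletal muscle and COX8C from testis. The nearest peak lay 14260 bp from COX6A2, 13604 bp from COX8C, 5004 bp from COX7A1 and 2889 bp from COX4I2. COX7B2, another testis isoform gene, had only weak peaks inside the gene, the tallest with 0.767 and 0.709 CPM in sg1 and 0.437 and 0.521 CPM in control. COX6B2 was the exception among these isoform genes, with the low gene-end peak given above.

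Genes of most tissues with a peak inside the gene were also among the members without a gene-end peak, and those peaks were looked at after the missing gene-end peaks were seen. ATP5MC2 is described above. COX7A2 had 15.6 and 16.5 CPM in sg1 and 22.2 and 20.6 CPM in control (log2 fold change -0.42, SE 0.09, adjusted p = 0.000948). NDUFA5 was higher, with 17.6 and 17.5 CPM in sg1 and 14.3 and 12.4 CPM in control (0.39, SE 0.10, adjusted p = 0.00522). Neither gene had a peak within 1 kb of its RefSeq start, so these peaks do not stand for the starts. The NDUFA5 peak was the tallest of 4 inside the gene. Both calls held in all 4 fits that leave out a library. COX7A2L, a factor in joining complexes III and IV, had a peak within 1 kb of its RefSeq start. That peak had 22.9 and 20.3 CPM in sg1 and 21.8 and 20.2 CPM in control (0.04), and its groups overlapped.

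Chromosomes differed in their general shift. The median log2 fold change of all genes' tallest peaks ran from -0.18 on chromosome X to 0.34 on chromosome 7. NDUFB11 and NDUFA1, 2 of the 5 lower genes, are on X, where the third member, COX7B, had -0.07. NDUFB11 lay far below the median of X, and NDUFA1 close to it. Of all 84 members, 45 were above the median of their own chromosome. All 21 higher genes were above theirs and all 5 lower genes below. Those genes were called for their large changes, so this order was largely set in advance. On chromosomes 17 and 21 the median was 0.27 and 0.23 over all genes, while that of the 3 members on each was -0.01 and -0.07. The part of these regional shifts in the members' values was not tested.

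By motif, 6 of 15 genes with the YY1 core and their tallest peak at the start were higher and 1 was lower, against 10 and 3 of 54 without it. With the NRF1 core 5 of 17 were higher and 1 lower, against 11 and 3 of 52 without it. For the GABP/ETS core these were 6 and 1 of 21, against 10 and 3 of 48. The numbers are small and no test was made of them. Irrespective of motif, 30.6% of tested protein-coding genes were higher and 8.94% lower. Calls outside the members were not split by core. Whether promoters with a given core differ in general is thus not shown, and no link between a core and the calls is drawn.

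Genes that serve the same system were counted in the same way, at their tallest gene-end peaks, against the same 30.6% higher and 8.94% lower of all genes. Of 17 regulators of respiratory gene transcription and mitochondrial DNA, 8 were higher and 2 lower (median log2 fold change 0.08). The largest rise was at NRF1 itself, with 19.6 and 19.3 CPM in sg1 and 11.7 and 12.6 CPM in control (0.69, SE 0.10, adjusted p = 4.13e-06). ESRRA, the nuclear receptor ERR alpha, had 54.9 and 58.7 CPM in sg1 and 42.1 and 41.5 CPM in control (0.44, SE 0.07, adjusted p = 4.93e-06). The 2 lower were TFB1M, which methylates mitochondrial ribosomal RNA, and POLG, the mitochondrial DNA polymerase, at -0.30 and -0.23.

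Among 41 other assembly factors of the complexes 14 were higher, with the smallest p at ATPAF2 (0.45), for ATP synthase, and COA1 (0.73), for complex IV. None was lower by edgeR or DESeq2, and 1 was at an unadjusted p under 0.05. Of 19 genes of the tricarboxylic acid cycle and pyruvate dehydrogenase 7 were higher, with the smallest p at CS, citrate synthase (0.42), and OGDH, of the oxoglutarate dehydrogenase complex (0.40), and 0 were lower by edgeR, by DESeq2 or at an unadjusted p under 0.05. Of 75 genes of mitochondrial ribosomal proteins 23 were higher, MRPS15 with the smallest p (0.71), and 1, MRPL50, was lower (-0.39). Of 14 genes of electron carriers and coenzyme Q synthesis 5 were higher, with the smallest p at COQ2 (0.33) and COQ7 (0.44), and 1, COQ6, was lower (-0.20). DESeq2 called fewer of these genes higher in each list: 4 regulators, 7 assembly factors, 5 of the cycle, 12 ribosomal and 3 of the carriers, against 17.4% of all genes higher by DESeq2.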

How the data were processed

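ATAC-seq peaks were measured in 2 sg1 and 2 control libraries. Raw counts for every peak were deposited. The authors counted alignments named as cut sites as single ends (featureCounts 1.6.0, per the file headers), so 1 fragment can be counted at both of its ends. The submitters' processing notes name MACS2 2.2.4 among the tools, with Bowtie2, SAMtools, Trimmomatic 0.39, deepTools 3.1.3 and DESeq2 1.32. The build and duplicate removal were not given in the sources used here. Peaks were placed on RefSeq genes of GRCh38.p14. Of the 70 members with a RefSeq start and a gene-end peak there, 63 had their tallest peak over the start. These 70 were already picked for a peak near a gene end in that build, and no other build was compared. The RefSeq table names NDUFA4 and NDUFA4L2 COXFA4 and COXFA4L2, so they are not members.

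The 109 peaks in the first 250 kb of chromosome 1 were left out of library sizes and tests. The test was the quasi-likelihood F test of edgeR 4.0.16 in R 4.3.3, on group alone, after filterByExpr and TMM. Genes with several gene-end peaks (50 members, up to 5 peaks) were represented by the tallest. The sg1 libraries were the deeper, and counts at the members' tallest peaks ran from 38 to 3408, so precision was lowest in control. The biological coefficient of variation was 8.13%. Alternatives were DESeq2 1.42.0 and its size factors, library size alone, no filter, a replicate block, each library left out, the chromosome 1 start kept, and windows of 500 bp and 2 kb. Scripts were tested on simulated data. Promoters came from RefSeq, and 77 members had one.

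The members, lists and tests were chosen with earlier results of these data known. Genes are named by a rule: per complex up to 4 called genes with the smallest p; tissue isoforms and the subunit c genes; the 3 largest called, non-overlapping changes in each direction among gene-end peaks; genes called in both directions; and up to 2 called genes per list. Other genes were named after their values were seen. Some items are not reported here.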

Additional observations from a re-analysis of the deposited data

Results flagged for a closer look

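The peaks in the first 250 kb of chromosome 1, which enter no comparison above, took 25.4% of the counts of a library on average in sg1 and 17.9% in control. They were noted as a signal in data outside the main measurement. The first 11 of them, from position 30 to 16530, cover a stretch about as long as the mitochondrial genome, going by position alone, and held 25.3% and 25.2% of the counts in the sg1 libraries and 17.8% and 17.7% in the control libraries. With these peaks kept in the fit, 22 OXPHOS genes were higher and 5 lower in sg1.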

How the results depend on the processing

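No member's tallest peak reversed direction with a call under any alternative. The DESeq2 Wald test called 8483 of all peaks higher and 17869 lower, against 21261 and 31038 with edgeR; among OXPHOS gene-end peaks it called 17 higher and 4 lower, against 29 and 7, and among genes 12 and 2, against 21 and 5. All genes then had 17.4% higher and 5.38% lower. Scaling by library size alone gave 32 higher and 2 lower genes and 4 lower peaks, against a background of 37.8% and 6.92%. Leaving out each library in turn gave 11148 to 20243 higher and 18880 to 29467 lower peaks in all, 12 to 30 higher and 3 to 7 lower OXPHOS peaks, and 8 to 19 higher and 1 to 5 lower genes. The lowest gene counts came without an sg1 library: 8 and 2 without sg1 replicate 1, and 12 and 1 without sg1 replicate 2. An sg1 or control group of 1 library was assumed to vary like the other group.

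The labels do not pair the libraries, and the deviations of same-numbered libraries did not correlate (-0.000258). A fit with the replicate number as a block gave 21215 higher and 30361 lower peaks, 28 and 7 OXPHOS peaks, and 20 and 5 genes; SDHA lost its call. The other alternatives kept each count within 1.5 times. Of 26 called genes, 14 kept their call under DESeq2, 10 without sg1 replicate 1, 13 without sg1 replicate 2, 17 without control replicate 1 and 18 without control replicate 2. The control libraries were the shallower and limit the precision of small peaks.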

Other observations

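COXFA4, the complex IV subunit gene long known as NDUFA4 and outside the symbol rule, had 30.7 and 27.3 CPM in sg1 and 24.6 and 24.7 CPM in control at its tallest gene-end peak (log2 fold change 0.24, SE 0.08, adjusted p = 0.0325 by edgeR). Its hypoxia-induced relative COXFA4L2, long known as NDUFA4L2, was low, with 1.38 and 0.633 CPM in sg1 and 0.680 and 0.716 CPM in control, and the groups overlapped.

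Summed over their tallest gene-end peaks, each complex was higher in both sg1 libraries than in both control libraries. Of all single genes 53.7% had this order, but a sum over several peaks is not like a single peak. Sums over sets of other genes were not computed, so this order is not shown to be particular to the complexes. All members together summed to 1749 and 1755 CPM in sg1 and 1624 and 1630.5 CPM in control, beside a median log2 fold change of 0.15 over all genes. Complex I subunit genes summed to 705 and 705 CPM in sg1 and 658 and 653 CPM in control, complex III genes to 204 and 203 CPM in sg1 and 186 and 184 CPM in control, and complex V genes to 371 and 370.2 CPM in sg1 and 351 and 351 CPM in control. The tallest peaks of the 4 complex II genes summed to 62.7 and 63.8 CPM in sg1 and 54.0 and 52.7 CPM in control, and those of the 10 complex IV genes to 171 and 176 CPM in sg1 and 149.5 and 144 CPM in control. The NDUFAF genes overlapped, with 235 and 237 CPM in sg1 and 225 and 245 CPM in control.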
